A study of Homo sapiens with 18 samples.

Results

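The 10 genes described here are regulators of mitochondrial apoptosis of the BCL2 family, chosen by name from the 23250 gene symbols listed for each library: the antiapoptotic BCL2, BCL2L1, MCL1 and BCL2A1, the BH3-only genes BCL2L11, PMAIP1, BBC3 and BMF, and the effectors BAX and BAK1. All 10 passed the filter on low values, a CPM (read counts scaled to the same total reads per library) that reached 1 in 3 or more libraries out of 18. The RNA came from Farage, SUDHL4 and SUDHL6, established human lines of diffuse large B cell lymphoma. For every line, cells were treated for 12 h with either vehicle (DMSO, 3 libraries) or 79-6.1085 at 10 µM (3 libraries). The compound is known by this code name and is described by the submitters as an inhibitor of BCL6, a transcriptional repressor of germinal centre B cells. Nothing in the labels states that replicates were grown as separate cultures, and p-values therefore reflect the spread among these libraries alone, part or all of which may be technical.

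Apoptosis through the mitochondrion is set off when BAX or BAK1 opens the outer mitochondrial membrane, which releases cytochrome c and activates caspases. The antiapoptotic proteins hold BAX and BAK1 in check, and the BH3-only proteins bind the antiapoptotic proteins, or the effectors themselves, and free the way. Germinal centre B cells keep BCL2 low, whereas many lymphomas that arise from them express it through a translocation or amplification of its locus, and BCL6 is known to repress BCL2. These libraries show transcript levels only, and several of these proteins, MCL1 and PMAIP1 among them, are known to be turned over within minutes to hours.

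The libraries held 6.29 to 25.49 M reads in the listed genes, and 3 reads corresponded to 0.095 to 0.362 CPM. In all, 4 libraries stood apart. Both SUDHL6 replicates numbered 3 were shallow, at 7.36 M reads (DMSO) and 6.29 M reads (inhibitor). Treated SUDHL6 replicate 1 and SUDHL4 DMSO replicate 3 differed more from their group than the other libraries of that group did, with chi-square values divided by their degrees of freedom of 50.17 and 40.06 for the first against its group and 12.26 and 16.48 for the second. The shallow SUDHL6 DMSO replicate 3 did so too, at 26.2 and 25.67 against 15.53 between the other 2. The total reads of each library are allowed for in these values. The 7 B cell markers were all above 1 CPM in every group. Their summed level in CPM as deposited was lower with the inhibitor, and the part of this in the results below was not tested: 7444 to 7828 CPM against 3377 to 4685 CPM in SUDHL6, 4185 to 4349 CPM against 2384 to 2521 CPM in Farage, and 10270 to 10720 CPM against 8161 to 8680 CPM in SUDHL4. The divisors of median-of-ratios scaling in SUDHL4 were 1.038 to 1.064 with DMSO and 0.848 to 0.868 with the inhibitor. The lower sum in SUDHL4 may therefore not hold under that scaling, and the sums were not rescaled. With that scaling 5 of the 7 B cell markers were called lower in SUDHL4 and 1 higher. All 5 germinal centre markers were above 1 CPM on average in 5 of the 6 groups, and 4 of the 5 in treated Farage. Of these 5, 2 were called lower in SUDHL6, 3 in Farage and 4 in SUDHL4, where 41.3%, 46.5% and 46.2% of all genes were. None was called higher with CPM as deposited. However, 1 was in SUDHL4 with median-of-ratios scaling, edgeR and DESeq2, 1 in SUDHL6 with edgeR and DESeq2, and 1 in Farage with DESeq2. Their summed level with DMSO against the inhibitor was 419.6 to 686.1 CPM against 344.6 to 539.8 CPM in SUDHL6, with overlap. Without overlap, it was 275 to 276.1 CPM against 236.6 to 254.9 CPM in Farage and 937.4 to 1007 CPM against 520.7 to 557.8 CPM in SUDHL4. These are sums of CPM as deposited. In Farage the divisors of median-of-ratios scaling were 1.052 to 1.08 with DMSO and 0.888 to 0.919 with the inhibitor. The separation in Farage may therefore not hold under that scaling, and the sums were not rescaled. BCL6, 1 of the 5 markers, held much of this sum: its mean in Farage was 204.8 CPM with DMSO and 211.1 CPM with the inhibitor. The median log2 change of the 5 markers was -0.35 in SUDHL6, -1.40 in Farage and -1.04 in SUDHL4, against -0.13, -0.22 and -0.21 for all genes. The part of these markers in the results was not tested. The summed markers of T and NK cells reached at most 2.53 CPM, of myeloid cells 3.50 CPM and of stroma and epithelium 7.45 CPM. These low sums also moved with the inhibitor. The myeloid sum was higher in every line, in SUDHL6 at 1.64 to 3.50 CPM against 0 to 0.529 CPM with DMSO. The sum of stroma and epithelium went from 5.68 to 7.45 CPM down to 0.945 to 1.41 CPM in Farage. In SUDHL4 it went from 3.69 to 4.29 CPM up to 5.83 to 6.80 CPM. BCL6 itself fell in SUDHL4 (log2 change -1.09, adjusted p = 4.14e-06) and in SUDHL6 (-0.35, adjusted p = 0.0409, and -0.17 with adjusted p = 0.243 after median-of-ratios scaling; with each library left out -0.53 to -0.17, called in 10 of 18, the smallest without DMSO replicate 2) and was not called in Farage (0.04, adjusted p = 0.814). Fewer cells expressing a gene and less RNA of it per cell cannot be told apart in these bulk samples.

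The antiapoptotic genes did not move together. BCL2L1 fell in all 3 lines and MCL1 rose in all 3, while BCL2 rose in Farage and fell in SUDHL4, and BCL2A1 fell in the 2 lines that expressed it at more than a few CPM. Changes are given as log2 fold changes of CPM + 1 with the standard error of the model, and p-values are those of limma with Benjamini-Hochberg adjustment over all 12769 genes tested, with calls at 0.05. The plot of levels shows every library.

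**Figure D1:**
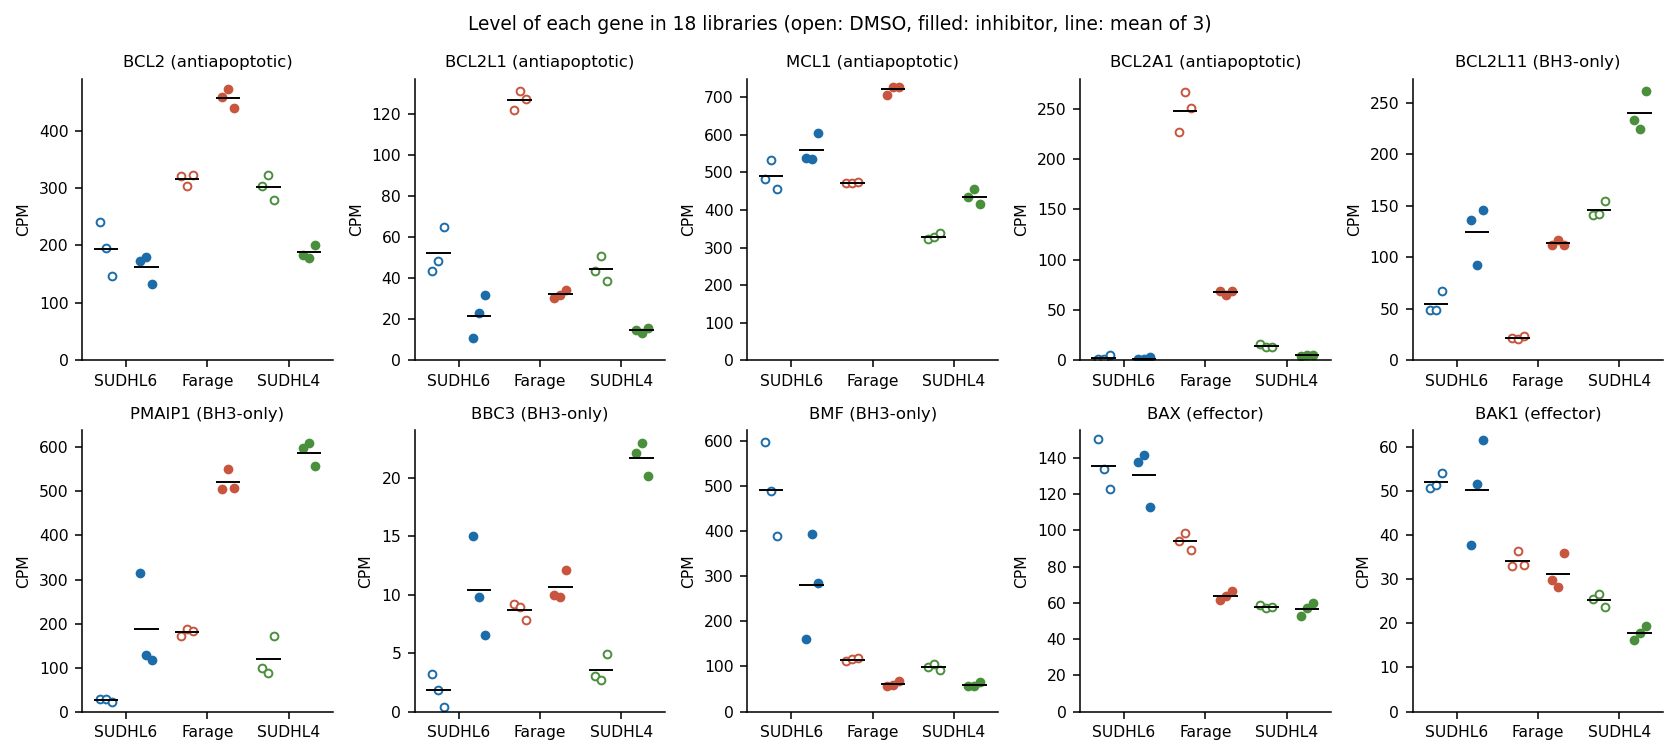
Level of each of the 10 genes in CPM (vertical axis, linear, from 0) in the 18 libraries, by line; open circles are DMSO, filled circles the inhibitor, and the line is the mean of 3. PMAIP1 in treated libraries (118 to 609.6 CPM) lies above DMSO of the same line in every line, BCL2L1 lies below it in every line, and BCL2 lies above it in Farage and below it in SUDHL4.

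BCL2, the antiapoptotic founder of the family and the target of venetoclax, read 241, 195 and 147 CPM in the DMSO libraries of SUDHL6 and 172, 180.4 and 133 CPM in the treated ones. In Farage it read 320.2, 304 and 322 CPM with DMSO and 459, 473 and 439 CPM with the inhibitor. In SUDHL4 the values were 304, 322 and 279 CPM with DMSO and 184, 179 and 201 CPM with the inhibitor. The groups overlapped in SUDHL6 and did not overlap in the other 2 lines, where they lay in opposite order. The change was 0.53 ± 0.14 in Farage (adjusted p = 0.00245) and -0.68 ± 0.14 in SUDHL4 (adjusted p = 0.000321). In SUDHL6 it was -0.25 ± 0.14 and not called (adjusted p = 0.126), but it was called with the replicate number as a block (adjusted p = 0.0263), without DMSO replicate 3 (-0.43, adjusted p = 0.00424) and without both shallow libraries (-0.30, adjusted p = 0.0131). It was smaller after median-of-ratios scaling (-0.07, adjusted p = 0.672), with edgeR (-0.06) and with DESeq2 (-0.08), and the change in SUDHL4 was then -0.38, -0.36 and -0.37 and still called. The mean over the lines was -0.13 (adjusted p = 0.137), called lower at -0.15 without both shallow libraries (adjusted p = 0.0115), at -0.19 without SUDHL6 DMSO replicate 3 (adjusted p = 0.0102) and with the block (adjusted p = 0.0316), and above 0 at 0.11 after median-of-ratios scaling (adjusted p = 0.189).

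BCL2L1, which encodes BCL-XL, had levels of 43.5, 48.2 and 65.1 CPM in SUDHL6 DMSO libraries and 10.7, 22.9 and 31.7 CPM in treated ones. Farage had the highest level of the DMSO groups, 122, 131 and 127 CPM, and 30.3, 31.6 and 34.2 CPM after treatment. In SUDHL4 it went from 43.5, 50.7 and 38.9 CPM to 14.7, 13.3 and 15.8 CPM. No treated library reached the lowest DMSO library of its line. The log2 changes were -1.33 ± 0.25 in SUDHL6 (adjusted p = 0.000188), -1.95 ± 0.25 in Farage (adjusted p = 3.16e-06) and -1.54 ± 0.25 in SUDHL4 (adjusted p = 4.02e-05), with a mean of -1.61. Without treated SUDHL6 replicate 1, the lowest of all, the change in SUDHL6 was -0.91 (adjusted p = 8.41e-05). It was called under every setting and with each library left out.

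MCL1, a short-lived antiapoptotic protein on which germinal centre B cells depend, rose in all 3 lines, and more in Farage than in SUDHL6. Its 3 DMSO libraries in Farage read 472, 472 and 474 CPM and the treated ones 707, 728 and 729 CPM. In SUDHL4 it read 322, 327 and 339 CPM before and 434, 455 and 416 CPM after. These groups were far apart, and the changes were 0.61 ± 0.07 (adjusted p = 7.42e-07) and 0.40 ± 0.07 (adjusted p = 6.43e-05). In SUDHL6 the values were 482, 533 and 457 CPM with DMSO and 539, 536 and 606 CPM with the inhibitor, where the lowest treated library lay just above the highest DMSO one. The change there was 0.19 ± 0.07 (adjusted p = 0.0206), and it was not called with only this line in the fit (adjusted p = 0.173), without both shallow libraries (0.09, adjusted p = 0.289), and without DMSO replicate 1, DMSO replicate 3 or treated replicate 3 in turn (adjusted p = 0.0539, 0.0963 and 0.0995). It was larger, and called, with median-of-ratios scaling (0.37), edgeR (0.39) and DESeq2 (0.37), and in SUDHL4 these gave 0.70, 0.73 and 0.71.

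BCL2A1, an NF-kB target that binds several BH3-only proteins, differed most between the lines of the 10 genes by log2 difference of the DMSO levels. Farage DMSO libraries read 227, 266 and 251 CPM and treated ones 69.2, 64.7 and 68.6 CPM. In SUDHL4 the level went from 16.5, 13.4 and 13.3 CPM to 4.54, 5.52 and 5.28 CPM. It fell by 1.86 ± 0.31 on the log2 scale in Farage (adjusted p = 4.55e-05) and by 1.33 ± 0.31 in SUDHL4 (adjusted p = 0.00102), with no overlap in either. In SUDHL6 it stood at 0.963, 1.17 and 4.82 CPM with DMSO and 1.03, 1.02 and 2.78 CPM with the inhibitor, that is 23 to 45 reads per library. The high value of each SUDHL6 group is its shallow replicate 3, although the DMSO replicate 3 also held the most reads of its group, 45. The groups overlapped, and the change of -0.23 was not called (adjusted p = 0.541). Without DMSO replicate 3 it was 0.27 (adjusted p = 0.256).

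Of the 4 BH3-only genes, BCL2L11 and PMAIP1 rose in all 3 lines, BBC3 rose in SUDHL6 and SUDHL4, and BMF fell in all 3, though its call in SUDHL4 did not hold under other scalings. The bases before the start sites of the 3 genes that rose are shown because each of these genes rose in at least 2 lines, although in different order: BCL2L11 rose most in Farage, where BBC3 was not called. They come from RefSeq (GRCh38.p14), 5′ to 3′ on the strand of the gene, at chr18:59899746-59899995 (+ strand) for PMAIP1, chr2:111120664-111120913 (+ strand) for BCL2L11 and chr19:47232668-47232917 (- strand) for BBC3, each 250 bases long and ending at the start site. Capitals mark the half-site of the cyclic AMP response element, TGACG, which ATF factors can bind, the FOXO motif TGTTTAC and the E-box CACGTG, each searched on both strands.
PMAIP1: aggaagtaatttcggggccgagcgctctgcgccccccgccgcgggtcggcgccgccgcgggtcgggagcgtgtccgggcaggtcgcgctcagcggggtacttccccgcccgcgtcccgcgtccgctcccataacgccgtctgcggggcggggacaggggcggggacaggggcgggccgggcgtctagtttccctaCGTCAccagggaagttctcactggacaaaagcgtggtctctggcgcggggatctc
BCL2L11: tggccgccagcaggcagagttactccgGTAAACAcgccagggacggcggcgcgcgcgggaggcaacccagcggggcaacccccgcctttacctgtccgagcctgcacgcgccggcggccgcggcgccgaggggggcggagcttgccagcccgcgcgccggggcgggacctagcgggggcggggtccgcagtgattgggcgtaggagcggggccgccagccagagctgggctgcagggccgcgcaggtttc
BBC3: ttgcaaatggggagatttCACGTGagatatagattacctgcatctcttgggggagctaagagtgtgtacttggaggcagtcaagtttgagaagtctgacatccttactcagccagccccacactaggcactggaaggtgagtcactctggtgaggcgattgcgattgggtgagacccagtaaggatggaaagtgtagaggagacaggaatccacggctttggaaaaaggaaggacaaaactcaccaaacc

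PMAIP1 held 1 half-site, read as CGTCA, whose first base lies at -55 from the start site. The half-site was also found once each in BMF (-57) and BCL2L1 (-201), which fell, in BCL2 (-225) and in BAX (-134). BMF and BCL2L1 have 2 promoters each in the table used, and only 1 of the 2 held it. BCL2L11 held 1 FOXO motif at -223, read as GTAAACA, and BBC3 held 1 E-box at -232. Over the 35116 promoters of 300 bases in the same table, from 250 bases before to 50 after the start, 24.55% held the half-site, 3.42% the FOXO motif and 7.26% the E-box. Of the 10 genes, 9 had at least 1 promoter in the table, all except MCL1, which was therefore not searched. The full element TGACGTCA (in 1.85% of all promoters) and the BCL6 motif TTCCTNGAA (1.56%) were found in none of them, the composite ATF4 motif TGATGNAA (3.62%) in BCL2A1 only, at -63, and 4 E-boxes in BAX, the first of which overlaps a half-site by 2 bases. The base composition differed too: G and C made up 72.8% of the bases shown for PMAIP1 and 76.8% for BCL2L11, against 49.2% for BBC3. A match is a stretch of letters and was not tested for binding.

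BCL2L11 encodes BIM, a BH3-only protein that binds all of the antiapoptotic proteins and can activate BAX directly. Farage had the lowest DMSO level, at 22.01, 20.8 and 23.2 CPM, which became 112, 117 and 112 CPM. In SUDHL6 it read 48.9, 48.6 and 67.3 CPM with DMSO and 136, 92.6 and 146 CPM with the inhibitor. SUDHL4 began highest, at 141, 142 and 155 CPM, and reached 234, 224 and 261 CPM. The groups were apart in each line, and treated Farage still lay below untreated SUDHL4. The change was 2.32 ± 0.14 in Farage (adjusted p = 8.38e-10), 1.16 ± 0.14 in SUDHL6 (adjusted p = 2.21e-06) and 0.71 ± 0.14 in SUDHL4 (adjusted p = 0.000278).

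PMAIP1, which encodes NOXA, a BH3-only partner of MCL1 and BCL2A1, had the largest mean change of the 10 genes, 2.17 ± 0.16 (adjusted p = 1.81e-09). It read 27.9, 28.8 and 22.7 CPM in SUDHL6 with DMSO and 316, 129 and 118 CPM with the inhibitor. In SUDHL4 it read 100, 88.4 and 171 CPM with DMSO and 599, 609.6 and 557 CPM with the inhibitor. In Farage the DMSO level was already 172, 188 and 183 CPM, and the treated level was 506, 551 and 508 CPM. Treated and DMSO libraries did not overlap in any line, but treated SUDHL6 replicate 1 and SUDHL4 DMSO replicate 3, both among the libraries that stood apart, were each far above the other 2 of their group. The changes were 2.64 ± 0.28 in SUDHL6 (adjusted p = 4.44e-07), 1.52 ± 0.28 in Farage (adjusted p = 0.000127) and 2.35 ± 0.28 in SUDHL4 (adjusted p = 1.22e-06). Without the SUDHL6 library the first was 2.19 (adjusted p = 6.08e-08), and without the SUDHL4 library the last was 2.63 (adjusted p = 6.50e-07).

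BBC3, which encodes PUMA, a BH3-only protein best known as a p53 target, had the fewest reads of the 4 BH3-only genes, 4 to 645 per library. SUDHL4 went from 3.07, 2.72 and 4.89 CPM to 22.2, 23.0 and 20.1 CPM. SUDHL6 had 3.20, 1.85 and 0.428 CPM with DMSO, the last from 4 reads in the shallow replicate, and 15.01, 9.77 and 6.52 CPM with the inhibitor. In Farage the level was 9.24, 8.94 and 7.81 CPM with DMSO and 10.0, 9.79 and 12.1 CPM with the inhibitor. Every treated library exceeded the DMSO libraries of its own line, but in Farage by a margin smaller than the spread of its treated group. The change was 2.35 ± 0.31 in SUDHL4 (adjusted p = 4.03e-06) and 2.08 ± 0.31 in SUDHL6 (adjusted p = 1.76e-05, and 1.93 with adjusted p = 2.49e-06 without both shallow libraries). In Farage it was 0.27 ± 0.31 and not called (adjusted p = 0.461), although it was called with only this line in the fit (adjusted p = 0.0374). The Farage change was 0.488, 0.535 and 0.549 with median-of-ratios scaling, edgeR and DESeq2, still not called (adjusted p = 0.164, 0.128 and 0.134). The microRNA genes MIR3190 and MIR3191 overlap BBC3, and with no strand setting stated their reads cannot be told from its own.

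BMF, a BH3-only protein that is tethered to myosin motors through dynein light chain DYNLL2, was lower with the inhibitor in each line, against the direction of the other BH3-only genes. SUDHL6 had by far the highest level, 597, 488 and 389.9 CPM with DMSO and 161, 394 and 286 CPM with the inhibitor. In Farage it read 113, 116 and 118 CPM with DMSO and 56.4, 59.2 and 67.8 CPM with the inhibitor. In SUDHL4 the values were 99.9, 106 and 91.7 CPM and then 57.1, 56.0 and 66.1 CPM. Groups did not overlap in Farage and SUDHL4, and in SUDHL6 treated replicate 2 lay above DMSO replicate 3. The changes were -0.88 ± 0.22 in SUDHL6 (adjusted p = 0.00215), -0.91 ± 0.22 in Farage (adjusted p = 0.00153) and -0.72 ± 0.22 in SUDHL4 (adjusted p = 0.00802). The SUDHL6 call was lost with only this line in the fit (adjusted p = 0.0876), and the change was -0.53 without treated replicate 1 (adjusted p = 0.00607). The SUDHL4 call was lost at -0.43 with median-of-ratios scaling, -0.41 with edgeR and -0.42 with DESeq2 (adjusted p = 0.0626, 0.0661 and 0.0514).

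The 2 effectors moved little. BAX fell in Farage, and every other call of a change of BAX or BAK1 with the inhibitor, in a line or in the mean, depended on the scaling. BAX, which moves from the cytosol to mitochondria when activated, read 150.3, 134 and 122.8 CPM in SUDHL6 with DMSO and 138, 141 and 113 CPM with the inhibitor. In Farage it went from 94.3, 98.7 and 89.3 CPM to 61.5, 63.7 and 66.8 CPM, and in SUDHL4 it read 58.8, 57.2 and 57.7 CPM before and 53.0, 57.2 and 60.03 CPM after. Groups overlapped in SUDHL6 and SUDHL4 and were apart in Farage, where BAX fell by 0.55 ± 0.09 (adjusted p = 3.89e-05), or by 0.31, 0.31 and 0.30 with median-of-ratios scaling, edgeR and DESeq2, still called. In SUDHL6 the value was -0.06 (adjusted p = 0.608). In SUDHL4 it was -0.03 (adjusted p = 0.792) with CPM as deposited, but BAX was called higher there by edgeR (0.29, adjusted p = 0.00983), by DESeq2 (0.28, adjusted p = 0.00407) and after median-of-ratios scaling (0.27, adjusted p = 0.0106).

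BAK1, the effector that resides on the mitochondrial membrane and is bound there by MCL1 and BCL-XL, read 50.7, 51.2 and 54.1 CPM in SUDHL6 with DMSO and 37.8, 51.7 and 61.5 CPM with the inhibitor. In Farage it read 32.9, 36.4 and 33.3 CPM and then 29.8, 28.1 and 35.9 CPM. SUDHL4 had 25.5, 26.6 and 23.6 CPM with DMSO and 16.2, 17.7 and 19.4 CPM with the inhibitor, with no overlap, unlike the other 2 lines. BAK1 was lower there by -0.49 ± 0.14 (adjusted p = 0.00428), a call that was lost with median-of-ratios scaling, edgeR and DESeq2 (adjusted p = 0.153, 0.169 and 0.170). In SUDHL6 (-0.07, adjusted p = 0.657) and Farage (-0.13, adjusted p = 0.401) it was not called. In the mean of the lines both effectors were called lower, BAX at -0.21 (adjusted p = 0.00118) and BAK1 at -0.23 (adjusted p = 0.0122), and under median-of-ratios scaling both stood at or just above 0, at 0.03 and 0.003.

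The plot of changes sets the 10 genes side by side. In SUDHL6 4 of the 10 were called higher, where 26.8% of all genes tested were, and 2 lower, where 41.3% were. In Farage 4 were called higher against 25.4% of all genes and 4 lower against 46.5%. In SUDHL4 4 were called higher against 24.3% and 5 lower against 46.2%. For the mean of the lines the counts were 4 higher against 30.1% and 5 lower against 53.8%. The share called in either direction, 6 to 9 of 10, was thus close to that of all genes, and the genes called higher were 3 BH3-only genes and MCL1 in SUDHL6, SUDHL4 and the mean, and BCL2L11, PMAIP1, MCL1 and BCL2 in Farage. The median log2 change of the 4 BH3-only genes was 1.62 in SUDHL6, 0.89 in Farage and 1.53 in SUDHL4, that of the 4 antiapoptotic genes -0.24, -0.66 and -1.004, and that of all genes tested -0.13, -0.22 and -0.21. Median-of-ratios scaling moved the median of all genes to 0 in SUDHL6, -0.04 in Farage and -0.004 in SUDHL4, and that of the antiapoptotic genes to -0.10, -0.42 and -0.72. With it the calls among all genes went from 3424 higher and 5273 lower to 4232 and 4447 in SUDHL6, from 3246 and 5939 to 4285 and 4750 in Farage, and from 3102 and 5894 to 4376 and 4609 in SUDHL4. For the mean of the lines they went from 3842 and 6876 to 5033 and 5664. BCL2L1, MCL1, BCL2L11 and PMAIP1 kept both direction and call in all 3 lines under that scaling, edgeR and DESeq2.

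**Figure D2:**
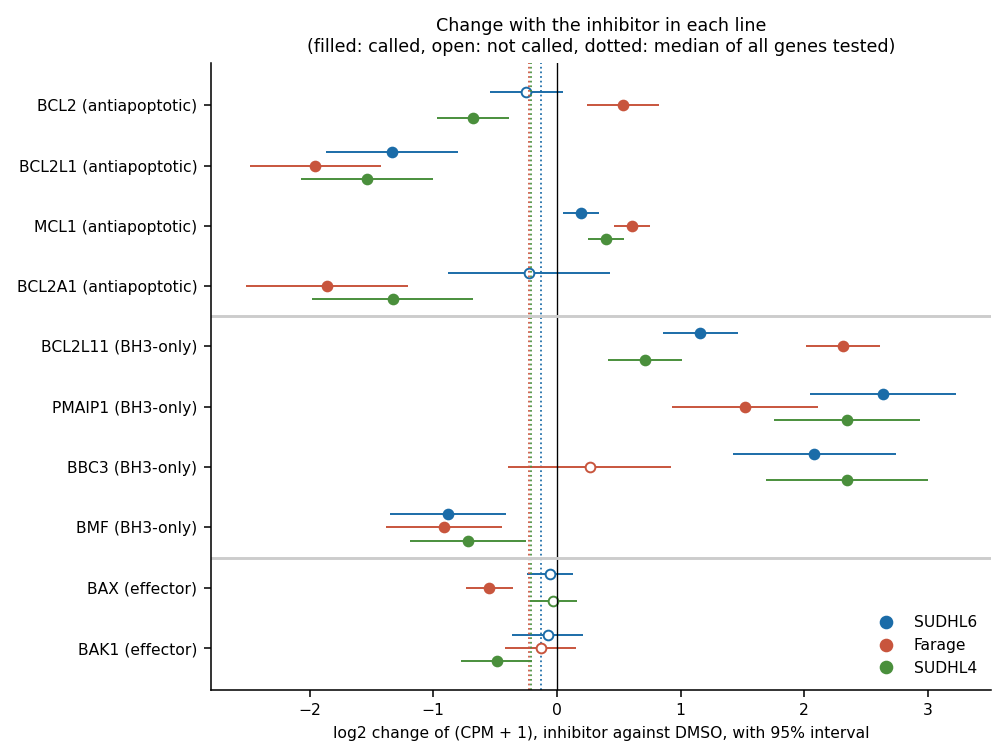
Change of each gene with the inhibitor in each line, as log2 fold change of CPM + 1 (horizontal axis) with its 95% interval; filled points were called, open ones not, and dotted lines mark the median of all genes tested in each line (-0.13, -0.22 and -0.21). BCL2 lies on opposite sides of 0 in Farage and SUDHL4. BBC3 in Farage stands at 0.265 (0.488 after median-of-ratios scaling, not called in either) while it is above 2 in the other lines. The small changes of BAX and BAK1, other than BAX in Farage, change sign or lose their call under other scalings.

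The balance of the family within each library was described as the mean log2(CPM + 1) of the 6 proapoptotic genes minus that of the 4 antiapoptotic ones. It weights each gene alike, and since gene lengths enter it, its 0 has no meaning of its own and only differences between libraries are read. In SUDHL6 it was -0.03, -0.23 and -0.74 with DMSO and 1.25, 0.87 and 0.51 with the inhibitor. In Farage it was -2.37, -2.39 and -2.43, and then -1.35, -1.33 and -1.24. In SUDHL4 it went from -1.03, -1.07 and -0.71 to 0.54, 0.55 and 0.55. Every treated library lay above the DMSO libraries of its line. The difference of the means was 1.21 in SUDHL6, 1.09 in Farage and 1.48 in SUDHL4; a scaling factor of the library cancels in it, apart from the pseudocount. Treated Farage still had a lower value than untreated SUDHL6 and SUDHL4, but this order of the means rests on BCL2A1. Leaving out BCL2L11 kept the order of the means, but treated Farage (-1.514 to -1.37) overlapped untreated SUDHL4 (-1.405 to -1.019). Leaving out BMF did the same, at -1.32 to -1.227 against -1.321 to -0.87 in untreated SUDHL4 and -1.378 to -0.722 in untreated SUDHL6. Without BCL2A1 the group mean was -1.73 in treated Farage against -1.80 in untreated SUDHL6 and -1.79 in untreated SUDHL4, and the shift in Farage was 0.69.

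The means of the roles were described in the same way, with no test. The mean of the BH3-only genes was higher by 1.25 in SUDHL6, 0.80 in Farage and 1.17 in SUDHL4. The mean of the antiapoptotic genes differed by -0.40, -0.67 and -0.79 in the same order, and that of the effectors by -0.07, -0.34 and -0.26. After median-of-ratios scaling these became -0.25, -0.43 and -0.50 for the antiapoptotic genes and 0.11, -0.10 and 0.03 for the effectors. In Farage and SUDHL4 all 3 treated libraries were below all 3 DMSO libraries for the antiapoptotic mean, whereas in SUDHL6 treated replicate 3, at 5.815, lay just below the lowest DMSO library, at 5.821. The plot of role means shows these values by library.

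**Figure D3:**
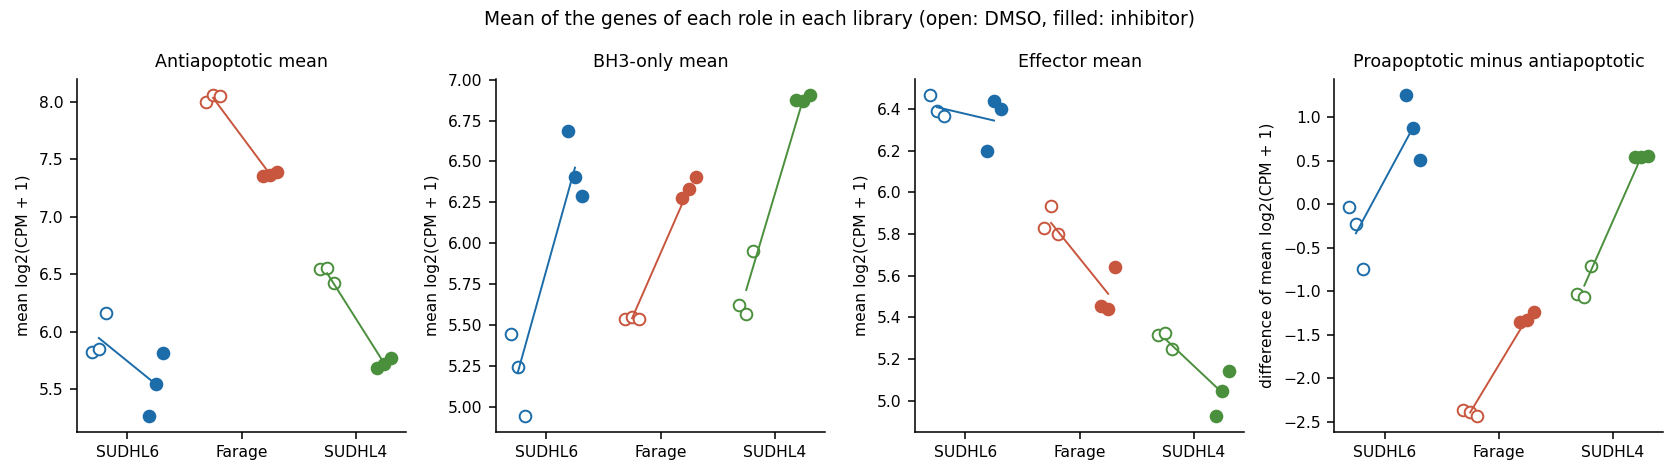
Mean log2(CPM + 1) of the antiapoptotic, BH3-only and effector genes, and the proapoptotic minus antiapoptotic difference (vertical axes, which do not start at 0), in each library by line; open circles are DMSO, filled circles the inhibitor, and lines join group means. The difference is higher in treated than in DMSO libraries of each line, and treated Farage (-1.35 to -1.24) remains below DMSO SUDHL4 (-1.07 to -0.71). That order of the means rests on BCL2A1, and the libraries of these groups also overlap without BCL2L11 or without BMF.

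Ratios within a library, which no scaling between libraries can move, were taken for pairs whose proteins bind each other. The log2 ratio of PMAIP1 to MCL1 CPM went from -4.11, -4.21 and -4.33 to -0.77, -2.06 and -2.36 in SUDHL6, and from -1.69, -1.89 and -0.99 to 0.47, 0.42 and 0.42 in SUDHL4. In Farage, where both genes rose, it went from -1.46, -1.33 and -1.37 to -0.48, -0.40 and -0.52. No treated library overlapped DMSO libraries of its line. The ratio of PMAIP1 to BCL2A1 was higher by 2.98 in SUDHL6, 3.401 in Farage and 3.85 in SUDHL4, and in SUDHL6 its values spread from 2.24 to 4.86 with DMSO and from 5.41 to 8.26 with the inhibitor.

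In Farage the ratio of BCL2L11 to BCL2L1 had the largest shift of the 8 pairs, 4.35, from -2.53 ± 0.11 to 1.82 ± 0.10 (SD, n = 3). It shifted by 2.56 in SUDHL6 (2.03 without treated replicate 1) and 2.32 in SUDHL4, in both less than PMAIP1 to BCL2A1. BCL2L11 to BCL2 was higher by 1.42, 1.83 and 1.40 in SUDHL6, Farage and SUDHL4. BCL2L11 to MCL1 differed by 0.98 in SUDHL6 and 1.76 in Farage but by only 0.31 in SUDHL4, where it went from -1.19, -1.20 and -1.13 to -0.89, -1.02 and -0.67. Other pairs went the opposite way. BMF to BCL2 shifted by -1.46 in Farage and -0.64 in SUDHL6, and by -0.05 in SUDHL4; without treated replicate 1 the SUDHL6 shift was -0.23. BAK1 to MCL1 shifted by -0.27, -0.75 and -0.91 in SUDHL6, Farage and SUDHL4, and the groups overlapped in SUDHL6, where the shift was -0.10 without treated replicate 1. BAK1 was not set against BCL2L1, whose protein also binds it and which fell more than BAK1 in each line. BAX to BCL2 shifted by -1.09 in Farage and by 0.65 in SUDHL4, with no overlap in either line, and by 0.19 in SUDHL6 (0.10 without DMSO replicate 1 and 0.31 without DMSO replicate 3).

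**Figure D4:**
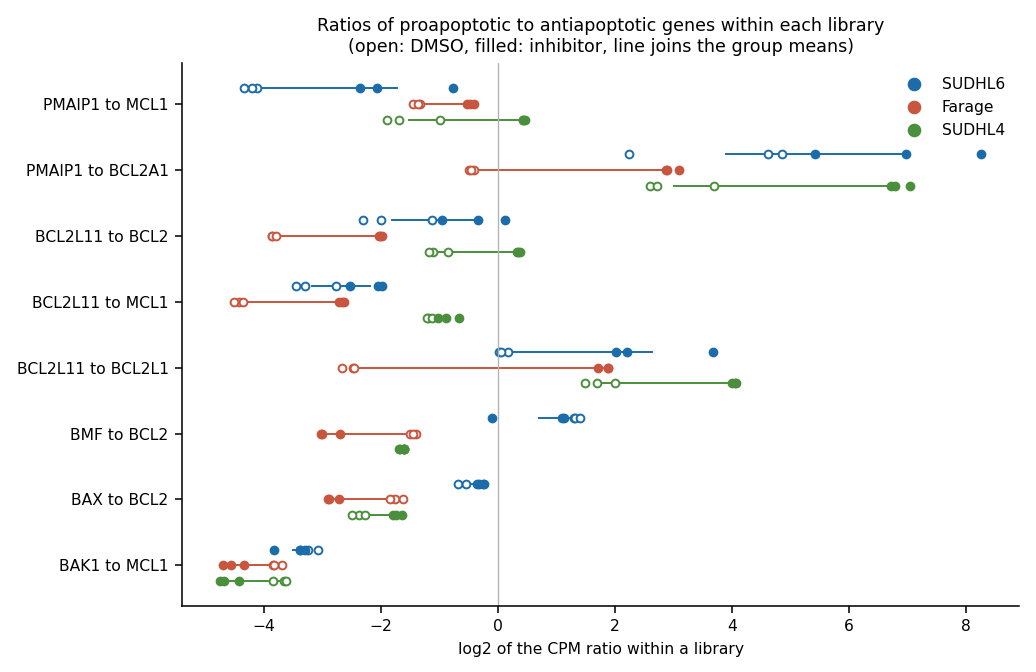
Log2 ratio of CPM of a proapoptotic to an antiapoptotic gene within each library (horizontal axis), for 8 pairs and 3 lines; open circles are DMSO, filled circles the inhibitor, and the line joins the group means. BCL2L11 to BCL2L1 has the largest shift in Farage (-2.53 to 1.82 on average), and BAX to BCL2 moves to the left in Farage and to the right in SUDHL4. Gene lengths enter these ratios, so 0 has no meaning of its own.

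Whether a change differed between lines was tested directly. Among all genes 55.9% had some difference of the response among the lines by an F-test, and 6 of the 10 did: BCL2, MCL1, BCL2A1, BCL2L11, BBC3 and BAX. PMAIP1 was just outside (adjusted p = 0.0558), as were BCL2L1, BAK1 and BMF further out (adjusted p = 0.295, 0.142 and 0.844). Between SUDHL6 and Farage 7 of 10 differed, against 36.8% of all genes. The change in SUDHL6 minus that in Farage was -0.78 for BCL2 (adjusted p = 0.00512), -1.16 for BCL2L11 (adjusted p = 0.000317) and -0.42 for MCL1 (adjusted p = 0.0032). It was 1.82 for BBC3 (adjusted p = 0.00401), 1.63 for BCL2A1 (adjusted p = 0.00754), 1.11 for PMAIP1 (adjusted p = 0.0361) and 0.49 for BAX (adjusted p = 0.00593). The difference of PMAIP1 was not called in 10 of the settings tried and was 0.67 without treated SUDHL6 replicate 1, and that of BCL2A1 not with edgeR or DESeq2 (adjusted p = 0.0571 and 0.143). BCL2L1 differed by 0.62 (adjusted p = 0.187) and was called with the block (adjusted p = 0.0474) and without treated SUDHL6 replicate 1 (1.04, adjusted p = 0.000978).

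Between SUDHL4 and Farage 4 of 10 differed, against 37.4% of all genes. The change in SUDHL4 minus that in Farage was -1.21 for BCL2 (adjusted p = 0.000139), -1.60 for BCL2L11 (adjusted p = 1.21e-05), 2.08 for BBC3 (adjusted p = 0.00139) and 0.52 for BAX (adjusted p = 0.00409). With only these 2 lines in the fit 9 of the 10 differed, all except BMF, against 56.9% of all genes in that fit. Between SUDHL6 and SUDHL4 none of the 10 was called by limma, against 35% of all genes, although at an unadjusted p under 0.05 there were 5 (BCL2, MCL1, BCL2A1, BCL2L11 and BAK1), against 44.4% of all genes at that threshold. With the block, the difference was called above 0 for BCL2 (0.43, adjusted p = 0.0171), BCL2A1 (1.10, adjusted p = 0.00145) and BCL2L11 (0.45, adjusted p = 0.0178). The changes of BCL2 and BCL2A1 in SUDHL6 itself were below 0. The 35% of all genes belongs to the fit without the block, and the share with the block is not given here. For MCL1, which rose in both lines, the difference was called below 0 by edgeR (-0.34, adjusted p = 0.0332), by DESeq2 (-0.34, adjusted p = 0.00473) and after median-of-ratios scaling (-0.33, adjusted p = 0.0218). Among all genes, the calls of this difference went from 2875 higher and 1599 lower to 2202 and 2170 under that scaling. The 3 differences share libraries and are not independent of each other.

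The lines already differed before treatment. Between SUDHL6 and Farage DMSO libraries 9 of the 10 genes differed, all except MCL1 (0.05, adjusted p = 0.531), against 71.3% of all genes. Between SUDHL4 and Farage 8 of 10 differed, against 67.1%, and between SUDHL6 and SUDHL4 9 of 10, against 68.6%. BCL2A1 differed from Farage by -6.41 ± 0.31 in SUDHL6 (adjusted p = 7.69e-12) and by -4.02 ± 0.31 in SUDHL4 (adjusted p = 4.33e-09). BMF was higher in SUDHL6 than in Farage by 2.06 ± 0.22 and than in SUDHL4 by 2.28 ± 0.22 (adjusted p = 3.34e-07 and 1.22e-07), and did not differ detectably between the latter lines (-0.22, adjusted p = 0.394). BCL2L11 was highest in SUDHL4, then SUDHL6, then Farage, at 2.68 ± 0.14 and 1.27 ± 0.14 against Farage.

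For the other genes the order of DMSO levels was as follows. PMAIP1 was lowest in SUDHL6, at -2.74 against Farage and -2.08 against SUDHL4 (adjusted p = 1.71e-07 and 5.24e-06), and its difference of -0.65 between SUDHL4 and Farage (adjusted p = 0.049) did not hold in most alternatives. BCL2L1 was highest in Farage, from which SUDHL6 differed by -1.28 and SUDHL4 by -1.504, and SUDHL6 and SUDHL4 did not differ beyond their spread (0.22, adjusted p = 0.455). BCL2 was lowest in SUDHL6, at -0.72 against Farage and -0.66 against SUDHL4, and SUDHL4 and Farage did not differ beyond their spread (-0.07, adjusted p = 0.694). BAX and BAK1 both decreased in the order SUDHL6, Farage, SUDHL4, with means of 136, 94.1 and 57.9 CPM for BAX and 52.0, 34.2 and 25.2 CPM for BAK1. BBC3 was highest in Farage, at 8.66 ± 0.75 CPM (SD, n = 3). SUDHL6 differed from Farage by -1.90 (adjusted p = 3.80e-05) and SUDHL4 by -1.11 (adjusted p = 0.00473). SUDHL6 differed from SUDHL4 by -0.79 (adjusted p = 0.0318), a call that was lost in 2 of the 18 fits with a library left out.

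Genes that act around the family were counted from lists of other family members, of the apoptosome and caspases, of inhibitors of apoptosis, of transcription factors known to act on these loci and of protein partners. These lists were drawn up with earlier results of these data known, and each count is to be read against the 30.1% of all genes called higher and 53.8% called lower in the mean of the lines, with a median of -0.24. Of the 13 other BCL2 family genes 10 were tested and, in the mean of the lines, 3 were higher and 4 lower, with a median of -0.09. The mitophagy receptors BNIP3L (1.93, adjusted p = 3.74e-11) and BNIP3 (1.63, adjusted p = 1.20e-10) rose, and the BH3-only genes BAD (-0.79, adjusted p = 1.14e-05) and BID (-0.79, adjusted p = 8.10e-05) fell. BNIP3 showed the lines apart, at 28.2 ± 2.63 CPM to 151 ± 1.62 CPM in Farage against 16.1 ± 3.04 CPM to 18.9 ± 1.77 CPM in SUDHL6 (SD, n = 3 each), and was not called in SUDHL6.

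Of the 12 genes of the apoptosome and caspases all were tested, 4 were higher and 7 lower, close to the shares of all genes, with a median of -0.26. DIABLO, a mitochondrial protein that antagonises inhibitors of apoptosis, rose by 0.51 (adjusted p = 5.01e-09), whereas AIFM1 (-0.84), DFFB (-1.15) and ENDOG (-0.74), all tied to DNA fragmentation, fell (adjusted p = 2.73e-10, 1.19e-09 and 1.36e-06). Of 7 inhibitors of apoptosis 6 were tested, 1 rose and 2 fell, with a median of -0.05. XIAP, which inhibits caspases directly, read 66.7, 63.7 and 68.7 CPM with DMSO and 118, 124 and 114 CPM with the inhibitor in Farage, and its mean change was 0.86 (adjusted p = 1.38e-11). BIRC3, an NF-kB target like BCL2A1, fell by 1.39 on the log2 scale (adjusted p = 1.70e-08) and BIRC5, survivin, which is high in dividing cells, by 1.59 (adjusted p = 3.15e-06). BIRC5 in the treated SUDHL6 libraries ranged over 12.9, 49.3 and 73.3 CPM, lowest in the same replicate 1 that was lowest for BCL2L1 and BMF and highest for PMAIP1 and BBC3.

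Of the 16 transcription factors, all of them tested, 9 were higher and 6 lower, with a median of 0.35. ATF3, a stress-induced factor, rose most, by 4.30 (adjusted p = 2.46e-10), with 0.424, 0.944 and 1.07 CPM in SUDHL6 DMSO and 97.6, 38.7 and 34.7 CPM in the treated libraries. ATF4, known to activate PMAIP1 in the integrated stress response, rose by 1.16 (adjusted p = 6.93e-12) and FOXO4, of the family that acts on BCL2L11, by 1.23 (adjusted p = 2.06e-10). FOXO4 rose least in Farage, from 8.74 to 15.5 CPM on average, where BCL2L11 rose most. It rose most in SUDHL4, from 14.0 to 46.4 CPM, where BCL2L11 rose least. A link of these factors to the 10 genes was not tested. MYC fell by 1.83 in the mean (adjusted p = 1.83e-13), from 379 ± 47.2 CPM to 26.6 ± 0.74 CPM in SUDHL4 and from 178 ± 10.3 CPM to 148 ± 17.7 CPM in Farage (SD, n = 3 each), where median-of-ratios scaling left -0.03 (adjusted p = 0.788). In SUDHL4 DMSO replicate 3, ATF3 read 7.24 CPM against 0.693 and 0.602 CPM in the other 2, and PMAIP1 and BNIP3L were also highest in that library. Of 9 protein partners and turnover genes 8 were tested, 4 rose and 3 fell, with a median of 0.16. DYNLL2, the light chain that holds BMF, rose by 0.90 (adjusted p = 2.55e-10), and DYNLL1, the light chain that holds BIM, fell by 0.997 (adjusted p = 1.43e-10). FBXW7, which marks MCL1 protein for destruction, rose by 0.65, and USP9X, which removes such marks, by 0.44 (adjusted p = 2.85e-10 and 6.45e-09). Part of each count moved with scaling: with median-of-ratios scaling the mean-of-lines counts were 5 higher and 4 lower of the other family members, 4 and 4 of the apoptosome and caspases, 3 and 2 of the inhibitors, 9 and 5 of the transcription factors, and 5 and 2 of the partners.

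**Figure D5:**
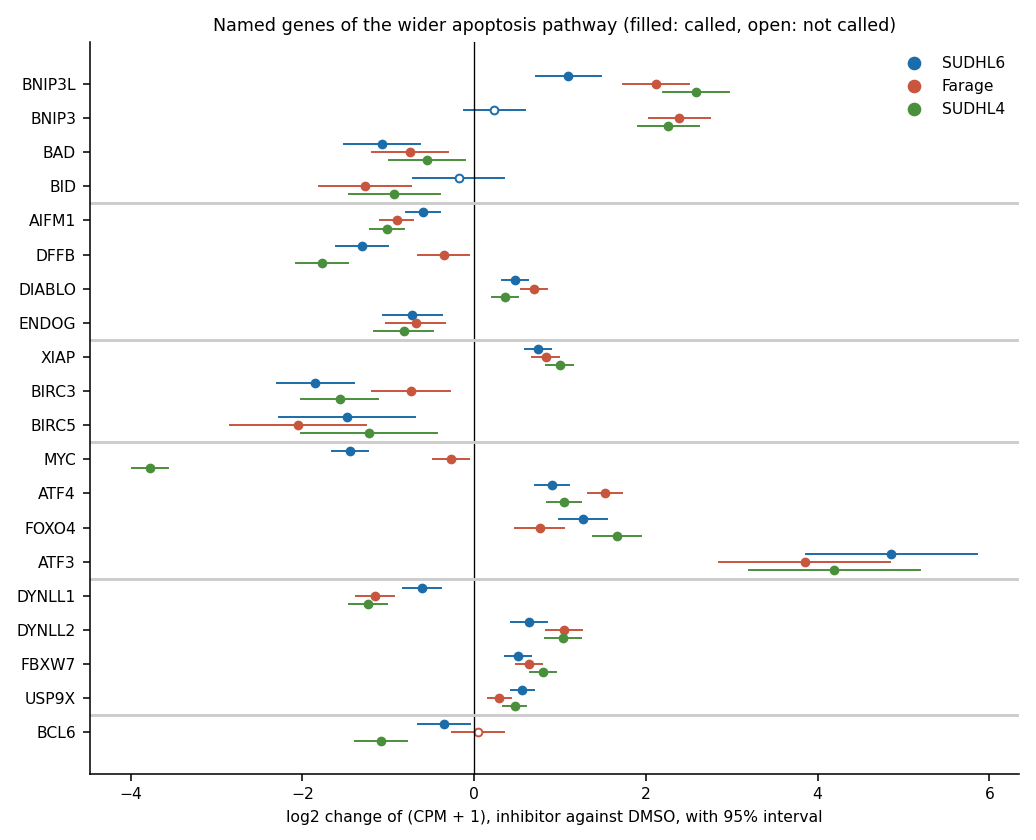
Change of the named genes of the wider pathway with the inhibitor, as log2 fold change of CPM + 1 (horizontal axis) with its 95% interval, in each line; filled points were called, open ones not, and grey lines separate the lists. ATF3 lies above 3 and XIAP and BNIP3L above 0 in all lines, and MYC ranges from -3.78 in SUDHL4 to -0.27 in Farage, the last near 0 after median-of-ratios scaling.

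For the genes other than BCL2A1, the 2 tested genes, unnamed loci left out, with the highest Pearson correlation of log2(CPM + 1) across the 18 libraries were listed as a description. These 18 points are 6 groups of 3 and share line and treatment, so high values are common. BMF was nearest to PPP2R5D (0.990) and MRPS18B (0.985), and BCL2L11 to SLC48A1 (0.987) and CAB39L (0.971). PMAIP1 was nearest to KIDINS220 and PIK3CA (both 0.984), BCL2L1 to SDHA (0.983) and TPCN2 (0.973), and MCL1 to ZNF263 (0.982) and ATP2A2 (0.964). BAX was nearest to SCAMP3 (0.976) and SIRT4 (0.971), BAK1 to EXOSC10 (0.965) and CWF19L1 (0.964), BBC3 to YIPF4 (0.951) and CEBPG (0.950), and BCL2 to SEC22C (0.948) and REPS1 (0.943). None of the genes listed as nearest was itself one of the 10.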

How the data were processed

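RNA-seq libraries of 18 samples, 3 per group, were analysed from CPM values as deposited (23250 gene symbols each). The submitters' processing notes name STAR as the aligner and hg19 as the genome build, and per the labels libraries used a TruSeq RNA kit and 1 sample names Rsubread. Versions, annotation release and strand setting are not stated in those sources. Each deposited CPM was a whole multiple of the value of 1 read in its library (100% of values within 0.01 reads), so whole reads were recovered; listed genes held 74.63 to 80.72% of the CPM divisor. Groups and replicate numbers came from the labels.

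Log2(CPM + 1) values were tested with limma 3.58.1 (R 4.3.3) with a variance trend; the pseudocount of 1 understates changes of low genes. Genes with at least 1 CPM in at least 3 libraries were tested, 12769 in all, in 1 model with a mean for each of 6 groups (12 residual degrees of freedom). P-values are two-sided and Benjamini-Hochberg adjusted over all genes tested, with calls at 0.05. The spread is shared by the lines, although pairs of SUDHL6 replicates differed by a chi-square per degree of freedom from 15.53 up to 50.17 and pairs in the other lines from 1.82 up to 16.48. Low read numbers and the 3-read floor cover counting error only. The script was checked on simulated data. Same-numbered DMSO and treated libraries deviated together in SUDHL6 (r = 0.425, 0.488 and 0.632), but not in Farage (0.168, -0.128 and -0.189) or SUDHL4 (-0.054, 0.034 and -0.073), so the numbers pair the samples in SUDHL6 only, and the blocked value is given beside a result where it changed a call.

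The balance of the family and the ratios within a library were described without a test. Named genes were the 10 members, up to 4 called genes of each pathway list by smallest p over the lines together, BCL6, and the 2 nearest genes of each member by correlation. The nearest genes of BCL2A1 are not reported here. The members and lists were chosen with earlier results of these data known. Each library was left out in turn. Other alternatives were median-of-ratios scaling, CPM rescaled to the listed genes, the replicate block (6 residual degrees of freedom), a fit of just the lines compared, a 0.25 pseudocount, all 19369 genes above 0, the 9678 genes with a mean CPM of 5 or more, and, on the recovered reads, DESeq2 1.42.0 and the quasi-likelihood test of edgeR 4.0.16 with TMM. Chosen after seeing the data were fits without both shallow SUDHL6 libraries and without these and SUDHL4 DMSO replicate 3, the balance without each member, and the ratios without each library.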

Additional observations from a re-analysis of the deposited data

Results flagged for a closer look

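The following differences of the response between lines passed the test of the difference itself (limma, all 12769 genes). SUDHL6 minus Farage was -0.78 for BCL2, -0.42 for MCL1, 1.63 for BCL2A1, -1.16 for BCL2L11, 1.11 for PMAIP1, 1.82 for BBC3 and 0.49 for BAX. SUDHL4 minus Farage was -1.21 for BCL2, -1.60 for BCL2L11, 2.08 for BBC3 and 0.52 for BAX. BCL2, BCL2L11, BBC3 and BAX differed from Farage in the same direction in both other lines, but both comparisons use the same Farage libraries.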

How the results depend on the processing

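Each comparison of each member was recomputed under each alternative. Of these values, 796 under alternatives that kept all libraries, and 1764 with 1 or more libraries left out, kept direction and call; 29 and 20 changed sign, 19 and 27 lost the call, and 16 and 19 gained it. For the further named genes 2156 were kept, 37 lost, 1 gained and 2 changed sign. With median-of-ratios scaling, edgeR and DESeq2 the members called lower came to 3 in SUDHL4, 3 in the mean of the lines and 1 in SUDHL6 minus SUDHL4, against 5, 5 and 0. With the replicate block 3 members were called higher in SUDHL6 minus SUDHL4, and the share of all genes with the block is not given here. The block changed no other call than those given in the report. With only the compared lines in the fit, 1 member was called lower in SUDHL6, and SUDHL4 minus Farage gave 5 higher and 4 lower members and 7265 genes. The balance of the family in Farage shifted by 0.689 without BCL2A1, against 1.086. The cause of these changes was not tested.

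Sign changes with median-of-ratios scaling, edgeR and DESeq2, in that order, were as follows. BAX gave 0.121, 0.15 and 0.135 in SUDHL6, 0.266, 0.293 and 0.281 in SUDHL4 and 0.027, 0.043 and 0.039 in the mean. BAK1 gave 0.101, 0.131 and 0.116 in SUDHL6, 0.106, 0.111 and 0.125 in Farage and 0.003, 0.019 and 0.015 in the mean. BCL2 gave 0.11, 0.119 and 0.115 in the mean, and MCL1 -0.055, -0.032 and -0.039 for the DMSO level of SUDHL6 against Farage. For SUDHL6 minus Farage, BMF was -0.033 with median-of-ratios scaling and BAK1 -0.006 with it and -0.009 with DESeq2. For SUDHL6 minus SUDHL4, BBC3 was 0.004 with the pseudocount of 0.25 and BAX 0.002 after rescaling to the listed genes.

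These values lay on both sides of 0 over the libraries left out in turn. In SUDHL6 they were -0.525 to 0.273 for BCL2A1, -0.124 to 0.045 for BAX, -0.229 to 0.114 for BAK1 and -0.45 to 0.199 for BID, where BCL2A1 and BID lay above 0 without DMSO replicate 3. BAX in SUDHL4 was -0.072 to 0.017, and BCL6 in Farage 0 to 0.064. SUDHL6 minus Farage was -0.261 to 0.382 for BMF and -0.098 to 0.245 for BAK1. SUDHL6 minus SUDHL4 was -0.118 to 0.624 for BCL2L1, -0.161 to 0.544 for PMAIP1, -0.69 to 0.088 for BBC3, -0.45 to 0.194 for BMF and -0.093 to 0.076 for BAX. The DMSO level of MCL1 in SUDHL6 against Farage was -0.011 to 0.1.

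With each library left out in turn, members called higher numbered 3 to 4 in SUDHL6 and 4 in Farage, SUDHL4 and the mean, and those called lower 2 to 3, 4, 5 and 5 to 6. Differences of the response gave 3 to 5 higher and 3 lower members (SUDHL6 minus Farage), 2 to 3 and 2 to 3 (SUDHL4 minus Farage) and 0 to 3 and 0 to 1 (SUDHL6 minus SUDHL4). DMSO levels gave 4 higher and 5 lower (SUDHL6 against Farage), 1 and 6 to 7 (SUDHL4 against Farage) and 4 and 4 to 5 (SUDHL6 against SUDHL4). Genes called in all were 8337 to 8775 in SUDHL6, 8603 to 9500 in Farage, 8419 to 9321 in SUDHL4 and 10503 to 10809 in the mean. They were 4032 to 5332, 4098 to 5631 and 3691 to 5246 for the 3 differences in the same order and 8476 to 9567, 7877 to 9105 and 8216 to 9215 for the DMSO levels. The balance of the family shifted by 1.011 to 1.398 (SUDHL6), 1.051 to 1.109 (Farage) and 1.412 to 1.595 (SUDHL4). Low read numbers limit BBC3 in SUDHL6 with DMSO (4 to 83 reads) and BCL2A1 in SUDHL6 (23 to 45 reads) most.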
